A study of Mus musculus with 3 samples.

Results

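The 42 genes described here encode the machinery that starts DNA replication, copies the genome and drives mitosis, together with the cyclins, kinases and inhibitors that decide whether a cell enters the cycle. They were chosen by symbol as a functional module, with earlier results of these data known, and all 42 were found among 55536 annotated genes. They were measured in bone-marrow-derived macrophages (BMDM), primary cells of C57BL/6J mice grown from bone marrow, that had received 100 ng/ml Lipid A for 30 min. Lipid A is the membrane anchor of bacterial lipopolysaccharide and the ligand of Toll-like receptor 4. Ribosome-depleted total RNA of the cytosolic fraction was sequenced in 1 group of 3 libraries, numbered 1, 2 and 3 as in the labels. They are described there as biological replicates, but all 3 carry the same donor record, and sex and age were not recorded. The errors below therefore describe how far these libraries lie apart, and part of that may be technical. No unstimulated cells and no nuclear fraction were analysed here, so levels are given at 1 time point and nothing is called induced.

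In the textbook scheme, D-type cyclins with Cdk4 and Cdk6 and later E-type cyclins with Cdk2 phosphorylate the retinoblastoma protein. This frees E2F transcription factors, which switch on genes for origin licensing, nucleotide supply and the replication fork. Genes of G2 and mitosis are switched on later by the MuvB complex with B-Myb and FoxM1. CDK inhibitors of the p21, p27 and INK4 kinds hold the kinases back. Macrophages grown with a colony-stimulating factor divide in culture, and bacterial ligands are known to stop that division.

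The libraries of replicates 1, 2 and 3 held 23403552, 50435201 and 35785896 expected counts on genes, and the 42 members took 0.161%, 0.183% and 0.156%. Levels are given in TPM (read share per unit of transcript length, scaled to a fixed total). The nuclear protein-coding class took 22.3%, 34.4% and 24.3% of the TPM in replicates 1, 2 and 3, so messenger RNAs share a larger part of the fixed TPM total in replicate 2. Differences between libraries are therefore given in CPM, counts relative to a library total scaled by the trimmed mean of M values (TMM). All 10 macrophage markers were at 10 TPM or more in mean. The stromal list summed to 281, 0.675 and 1.38 CPM in replicates 1, 2 and 3, with 3 of 10 markers at 0 in replicates 2 and 3. Col1a1, a fibroblast collagen gene, had 2375, 1 and 14 counts in replicates 1, 2 and 3. Neutrophil markers summed to 9.50, 21.9 and 24.5 CPM, with 2, 1 and 1 of 7 at 0. Haematopoietic progenitor markers summed to 5.87, 4.98 and 5.39 CPM, with none of 9 at 0, but the sum was led by Kit and 3 of the 4 tested genes were lowest in replicate 1. Erythroid and lymphoid markers summed to at most 0.175 CPM in each library.

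Cdkn1a, which encodes the CDK inhibitor p21, was the highest of the 42 genes at 174 ± 40.7 TPM (mean ± SD over 3 libraries, here and below). Pcna, the gene of the sliding clamp of DNA polymerase, followed at 68.0 ± 17.2 TPM. At the lower end were the licensing gene Cdc6 at 0.377 ± 0.154 TPM and both E-type cyclin genes. In all, 33 of 42 members averaged at least 1 TPM, and 7 averaged at least 10 TPM. Among all 22015 nuclear protein-coding genes, 42.7% reached 1 TPM and 18% reached 10 TPM. Members, with those under 1 TPM included, had a median log2(TPM + 1) of 2.13 ± 0.29. It was 0.226 ± 0.0247 over all 22015 nuclear protein-coding genes. Over the 9403 of these at 1 TPM or more, a filter not put on the members, it was 3.11 ± 0.30. Ordered by mean TPM, only 3 of 41 neighbouring pairs had ranges over libraries that did not touch, namely Cdkn1a above Pcna, Pcna above Cdk4, and Cenpa above Cdk6.

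**Figure D1:**
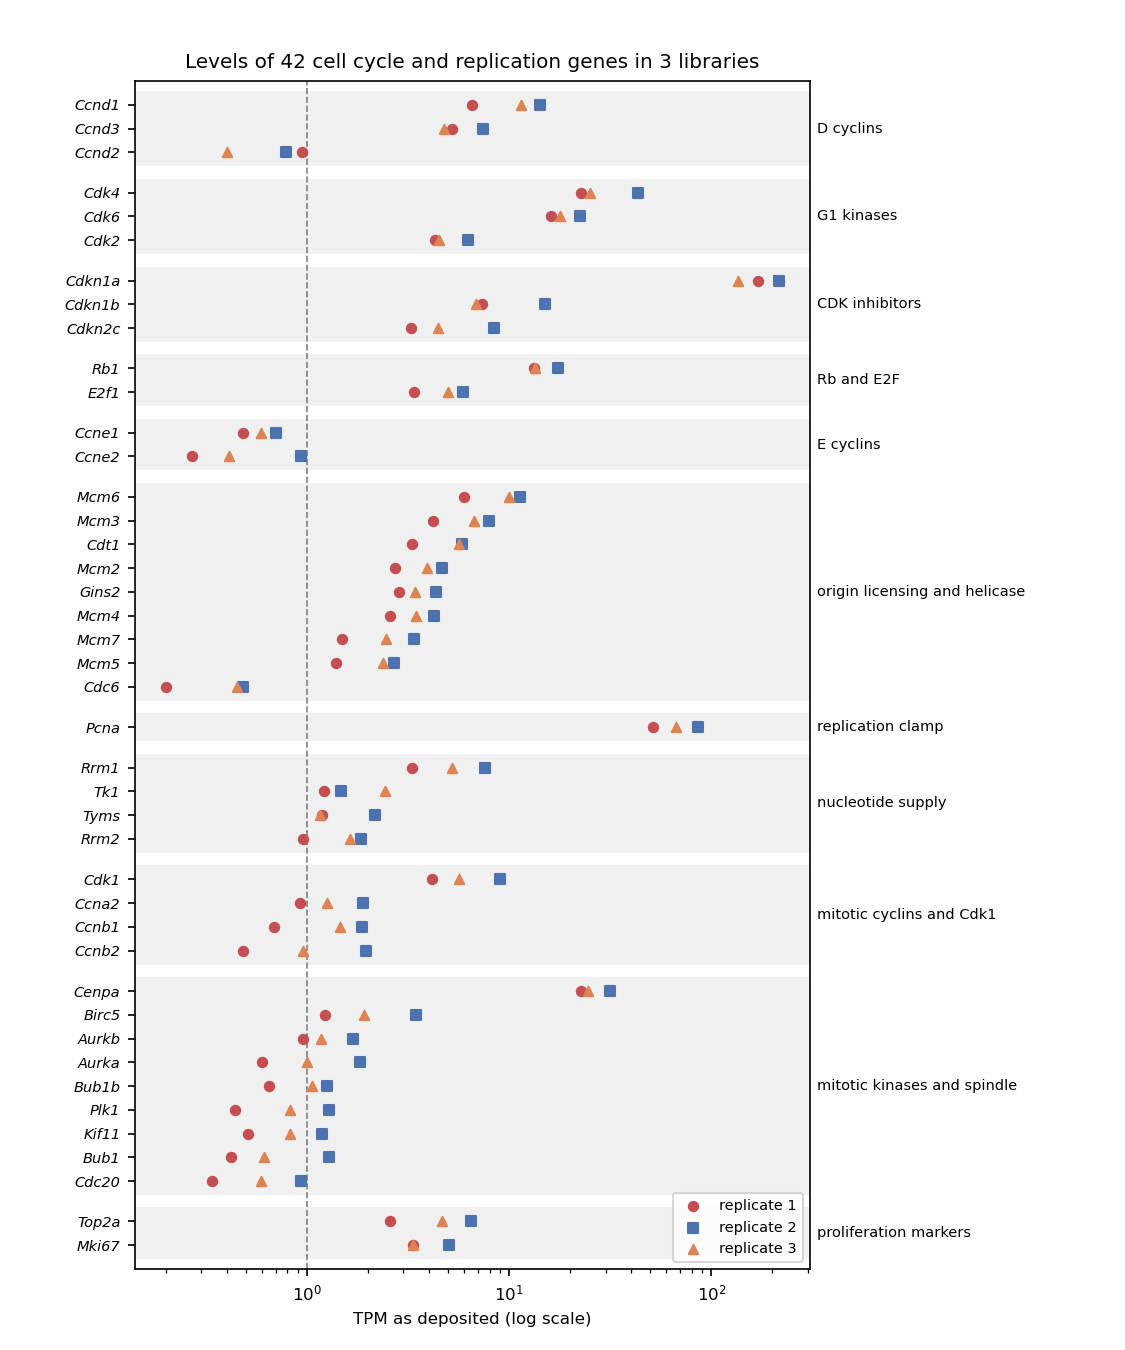
TPM of each of the 42 genes (horizontal axis, log scale) in replicates 1 (circles), 2 (squares) and 3 (triangles), grouped by role, with a dashed line at 1 TPM. Cdkn1a lies between 136 and 217 TPM and Pcna between 51.3 and 85.7 TPM, whereas all members of the E cyclins and most of the mitotic kinases lie near or below 1 TPM.

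Cdkn1a (ENSMUSG00000023067.14, chromosome 17, 29090976 to 29100727 in mm10) had 169, 217 and 136 TPM in replicates 1, 2 and 3. This placed it above 97.6% of nuclear protein-coding genes at 1 TPM or more. The coding transcript Cdkn1a-201 carried 96.8 ± 1.26% of it. In CPM it stood at 574, 506 and 418 in replicates 1, 2 and 3, highest in replicate 1 and lowest in replicate 3. The libraries differed in Cdkn1a by more than counting error (chi-square index of dispersion on rounded counts, Benjamini-Hochberg adjusted p = 4.21e-155, the test meant by adjusted p below). Cdkn1b, the gene of p27, had 7.33, 15.1 and 6.82 TPM in replicates 1, 2 and 3. Cdkn2c, encoding the INK4 protein p18 that binds Cdk4 and Cdk6, had 3.28, 8.37 and 4.44 TPM. Cdkn1a exceeded Cdkn1b by 4.35, 3.76 and 4.13 on the log2(TPM + 1) scale within replicates 1, 2 and 3, a scale that understates differences of low genes. In CPM, both Cdkn1b (adjusted p = 5.84e-28) and Cdkn2c (adjusted p = 1.85e-09) were highest in replicate 2. Among the other 5 CDK inhibitor genes, Cdkn1c, encoding p57, was highest at 19.2 ± 9.27 TPM, followed by Cdkn2d at 3.31 ± 0.592 TPM. Of the 4 of these 5 genes that could be tested, 2 differed between libraries, as did 67.9% of all genes tested. All 8 genes of p53 and its targets had 1 TPM or more, led by Sesn1 at 57.4 ± 14.1 and Ccng1 at 44.8 ± 14.9 TPM.

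The D-type cyclins, which carry growth-factor signals to Cdk4 and Cdk6, were led by Ccnd1. Ccnd1 had 6.53, 14.3 and 11.4 TPM in replicates 1, 2 and 3. Ccnd3 had 5.24, 7.39 and 4.75 TPM, and Ccnd2 had 0.94, 0.79 and 0.40 TPM. Ccnd1 stood above Ccnd2 in all 3 libraries, by a log2(TPM + 1) difference of 1.96, 3.09 and 3.15. The gap between Ccnd1 and Ccnd3 was 0.27, 0.86 and 1.11 on the same scale, positive in each library. Ccnd1 and Ccnd2 ran in opposite directions across libraries. In CPM, Ccnd1 was lowest in replicate 1, with 46.7, 70.1 and 74.2 in replicates 1, 2 and 3 (adjusted p = 8.09e-38). Ccnd2 was highest there, with 11.2, 6.33 and 4.53 CPM (adjusted p = 5.39e-20). Replicate 1 also holds the stromal transcripts, and their part in the Ccnd2 level was not tested. Ccnd3 had 17.9, 17.1 and 15.6 CPM and did not pass (adjusted p = 0.111).

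The kinases of G1 were among the most even genes of the module. Cdk4 had 22.7, 43.5 and 25.0 TPM in replicates 1, 2 and 3, Cdk6 had 16.2, 22.5 and 17.8 TPM and Cdk2 had 4.29, 6.24 and 4.48 TPM. Within libraries, Cdk4 exceeded Cdk6 by a log2(TPM + 1) difference of 0.46, 0.92 and 0.47, and Cdk2 by 2.16, 2.62 and 2.25. In CPM, Cdk2 had 17.5, 17.5 and 17.7 in replicates 1, 2 and 3 and did not differ beyond counting error (adjusted p = 0.984). Cdk6 had 255, 267 and 259 CPM, a highest over lowest of 1.05, although its large counts let even this pass (adjusted p = 0.00621). Cdk4 had 82.8, 92.5 and 81.0 CPM, with a highest over lowest of 1.14 (adjusted p = 2.71e-08). Cdk4 overlaps Tspan31 on the opposite strand by 641 bp, and reads there cannot be assigned with certainty. Rb1, which encodes the retinoblastoma protein, had 13.3, 17.5 and 13.4 TPM and differed little in CPM, with 104, 101 and 97.3 (adjusted p = 0.0509). Rb1 has the same limit, since on the opposite strand it overlaps Rcbtb2 by 24171 bp and Lpar6 by 5400 bp. E2f1, the gene of an activating E2F factor, had 3.38, 5.88 and 5.0 TPM. In CPM it was lowest in replicate 1 and highest in replicate 3, with 17.3, 20.7 and 23.3 (adjusted p = 1.75e-05). Rb1 stood above E2f1 within each library, by a log2(TPM + 1) difference of 1.71, 1.42 and 1.26. Of 11 other E2F, DP and pocket protein genes, 8 had 1 TPM or more, led by Rbl2, the gene of the pocket protein p130, at 11.2 ± 3.43 TPM and the E2F partner gene Tfdp1 at 9.23 ± 3.01 TPM. The E-type cyclin genes had few counts. Ccne1 had 40, 74 and 64 counts and Ccne2 33, 117 and 71, and neither passed (adjusted p = 0.255 for Ccne1 and 0.136 for Ccne2). The order of the pair differed between libraries. Ccne2 overlaps Ints8 on the opposite strand by 5622 bp, and Ints8 had 421, 896 and 618 counts.

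Genes of origin licensing and of the replicative helicase shared 1 library order under TMM scaling. Mcm2 to Mcm7 encode the ring of the helicase, Cdc6 and Cdt1 load it, and Gins2 belongs to the complex that activates it. Promoter windows of such genes are known for E2F sites, so windows from 250 bases before to 50 after the RefSeq start (GRCm38.p6) were searched on both strands for 3 motifs. For E2F the forms searched were TTGGCGC as the first form, TTCCCGC as a variant, TTGCCGC as another variant, and TTCGCGC as the last. The letters of the CHR, a cell-cycle homology region bound by MuvB, were TTTGAA and TTCGAA. The third motif was CCAAT, bound by the factor NF-Y. Windows were found for 34 of 42 members, 38 windows in all. The windows of Mcm6 (chr1:128359656-128359955, minus strand) and Mcm5 (chr8:75109259-75109558, plus strand) are shown because they carry several E2F matches. Capitals mark every match of the 3 motifs, and on opposite strands E2F matches can overlap in 1 longer run.
Mcm6: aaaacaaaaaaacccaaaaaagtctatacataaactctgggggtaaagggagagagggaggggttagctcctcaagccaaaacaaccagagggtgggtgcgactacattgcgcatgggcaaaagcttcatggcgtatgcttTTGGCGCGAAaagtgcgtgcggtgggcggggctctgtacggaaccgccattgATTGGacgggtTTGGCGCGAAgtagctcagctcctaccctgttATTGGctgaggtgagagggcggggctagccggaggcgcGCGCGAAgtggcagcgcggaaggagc
Mcm5: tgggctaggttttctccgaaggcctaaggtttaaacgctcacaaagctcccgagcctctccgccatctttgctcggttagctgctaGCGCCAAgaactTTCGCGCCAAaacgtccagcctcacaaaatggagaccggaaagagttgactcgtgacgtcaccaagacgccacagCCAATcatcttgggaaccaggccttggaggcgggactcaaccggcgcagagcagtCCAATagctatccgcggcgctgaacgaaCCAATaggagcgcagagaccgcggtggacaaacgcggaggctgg
The Mcm6 window held 5 E2F matches, at positions -109, -106, -46, -43 and 25 from the start, and the Mcm5 window held 3, at -164, -152 and -149. E2F letters were present in 7 of the 8 windows of this group, against 9.57% of all 32851 windows of the table. The window without them was that of Mcm2. Mcm7 is among the genes with 2 windows, each with E2F letters, and Mcm4 and Gins2 had no window. A match is a description of the letters and not evidence of binding.

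In CPM, all 9 licensing and helicase genes were lowest in replicate 1 and highest in replicate 3, with replicate 2 between. Over all 13237 genes tested, 34.6% were lowest in replicate 1 and 29.5% highest in replicate 3. Mcm6 (ENSMUSG00000026355.11, chromosome 1, 128331590 to 128359664) had 33.1, 43.0 and 50.2 CPM in replicates 1, 2 and 3 (adjusted p = 3e-20), and 5.97, 11.3 and 9.97 TPM. Mcm3 had 16.5, 20.9 and 24.8 CPM (adjusted p = 4.31e-10) and Cdt1 13.6, 16.1 and 20.6 CPM (adjusted p = 1.03e-09). Cdt1 lies whole inside Gm20388 on the same strand, a gene with 1479, 5310 and 2530 counts in replicates 1, 2 and 3, so the split of reads between them is uncertain. Cdc6 had the fewest counts, 26, 110 and 87, and the widest span of the group, 1.14, 2.06 and 2.51 CPM (adjusted p = 0.00281). In 8 of the 9 genes the libraries differed beyond counting error, where 67.9% of all genes tested did, and the exception was Gins2 with 20.5, 22.1 and 22.5 CPM (adjusted p = 0.32). The gene lies whole inside Gm20388 on the opposite strand, and the estimator's own spread of its count reached 4.33%, the widest of any member. The median of log2 deviations from the gene means was -0.28, 0.03 and 0.28 in replicates 1, 2 and 3. With library totals of all genes in place of TMM, or in the second transcript table, all 9 were still lowest in replicate 1 but only 7 of 9 were higher in replicate 3 than in replicate 2. Subunits of 1 ring differed in level: Mcm6 exceeded Mcm5 by a log2(TPM + 1) difference of 1.54, 1.73 and 1.70 within replicates 1, 2 and 3.

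Pcna (ENSMUSG00000027342.14, chromosome 2, 132249162 to 132253314) had 51.3, 85.7 and 67.0 TPM. In CPM it had the library order of the licensing genes, with 135, 154 and 161 in replicates 1, 2 and 3 (adjusted p = 8.11e-14). Under library totals of all genes and in the second transcript table it was highest in replicate 2 instead. Its processed copy Pcna-ps2 received 5, 25 and 24 counts and Pcna-ps1 none, against 3076, 8200 and 5574 for Pcna itself. The promoter window of Pcna held 0 E2F matches, unlike most windows of the licensing genes. Among 36 other replication factors, 28 had 1 TPM or more and 20 (55.6%) differed between libraries, against 67.9% of all genes tested. The highest were the clamp-loader genes Rfc2 at 18.0 ± 2.64 and Rfc1 at 12.3 ± 3.69 TPM. Lowest in replicate 1 were 25 of the 36, against 34.6% of all genes tested, with median deviations of -0.12, 0.08 and 0.04.

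The genes of nucleotide supply did not share 1 direction. Rrm1 and Rrm2, the subunits of ribonucleotide reductase, had 3.30, 7.62 and 5.23 TPM and 0.96, 1.86 and 1.64 TPM in replicates 1, 2 and 3. Rrm1 exceeded Rrm2 in every library, by a log2(TPM + 1) difference of 1.13, 1.59 and 1.24. In CPM, both were lowest in replicate 1, with 23.0, 29.5 and 28.1 for Rrm1 (adjusted p = 1.49e-05) and 3.72, 5.12 and 5.80 for Rrm2 (adjusted p = 0.00475). Tk1, the gene of the S-phase thymidine kinase, stood apart in replicate 3, with 2.76, 2.42 and 4.59 CPM (adjusted p = 2.41e-07). Transcripts annotated as not protein-coding held 48.4%, 32.2% and 56.6% of its TPM in replicates 1, 2 and 3. Tk1 had only 63, 129 and 159 counts and lies whole inside Gm20708 on the opposite strand, which had 31, 46 and 33. Tyms, encoding thymidylate synthase, had only 45, 125 and 62 counts and did not pass (adjusted p = 0.239). Of 7 other genes of this supply, Samhd1 was highest at 132 ± 47.9 TPM. It encodes the dNTP hydrolase that keeps the nucleotide pool of non-dividing macrophages low. It had 470, 467 and 394 CPM in replicates 1, 2 and 3 (adjusted p = 5.65e-63).

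Mitotic genes were lower in level and followed another library order. Cdk1, the kinase that drives entry into mitosis, had 4.17, 9.02 and 5.68 TPM in replicates 1, 2 and 3. Its cyclin partners were lower, with 0.92, 1.89 and 1.25 TPM for Ccna2, 0.69, 1.88 and 1.45 TPM for Ccnb1 and 0.48, 1.95 and 0.96 TPM for Ccnb2. The promoter windows of Cdk1 (chr10:69352863-69353162, minus strand), Ccnb2 (chr9:70421505-70421804, minus strand) and Top2a (chr11:99024140-99024439, minus strand) are shown because they carry CHR and CCAAT letters together, with capitals as above.
Cdk1: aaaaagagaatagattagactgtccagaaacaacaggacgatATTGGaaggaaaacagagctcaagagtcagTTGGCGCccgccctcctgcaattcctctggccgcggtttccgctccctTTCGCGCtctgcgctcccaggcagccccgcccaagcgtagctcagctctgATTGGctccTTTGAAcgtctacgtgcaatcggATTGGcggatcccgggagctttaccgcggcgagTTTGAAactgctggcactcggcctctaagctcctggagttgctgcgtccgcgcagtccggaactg
Ccnb2: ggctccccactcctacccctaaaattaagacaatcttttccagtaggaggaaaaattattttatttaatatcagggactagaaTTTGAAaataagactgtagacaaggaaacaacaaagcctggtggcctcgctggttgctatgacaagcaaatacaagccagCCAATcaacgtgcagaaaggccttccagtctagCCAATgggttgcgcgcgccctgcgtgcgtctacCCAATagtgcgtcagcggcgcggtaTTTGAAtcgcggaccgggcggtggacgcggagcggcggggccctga
Top2a: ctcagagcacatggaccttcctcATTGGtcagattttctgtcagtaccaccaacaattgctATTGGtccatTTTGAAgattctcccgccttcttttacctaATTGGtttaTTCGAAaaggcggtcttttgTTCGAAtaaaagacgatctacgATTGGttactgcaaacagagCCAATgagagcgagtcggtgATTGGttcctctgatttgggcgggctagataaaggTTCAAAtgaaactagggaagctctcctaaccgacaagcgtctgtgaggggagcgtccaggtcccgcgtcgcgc
In the Ccnb2 window, 3 CCAAT matches lie at -87, -54 and -21 and CHR matches at -167 and 5, while the Cdk1 window adds 2 E2F matches at -178 and -130 to CHR matches at -71 and -15. The Top2a window held 4 CHR and 6 CCAAT matches. For the mitotic cyclins and Cdk1, CHR letters were present in 2 of 3 windows, CCAAT in 3 of 3 and E2F letters in 2 of 3. The Ccnb1 window held 1 E2F match and 0 CHR matches. For the mitotic kinases and spindle genes, CHR letters were present in 7 of 8 windows, CCAAT in 7 of 8 and E2F letters in 0 of 8. The shares over all windows of the table were 19.2% for CHR, 37.4% for CCAAT and 9.57% for E2F. With so low a share, 0 of 8 for E2F is near that of all windows.

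**Figure D2:**
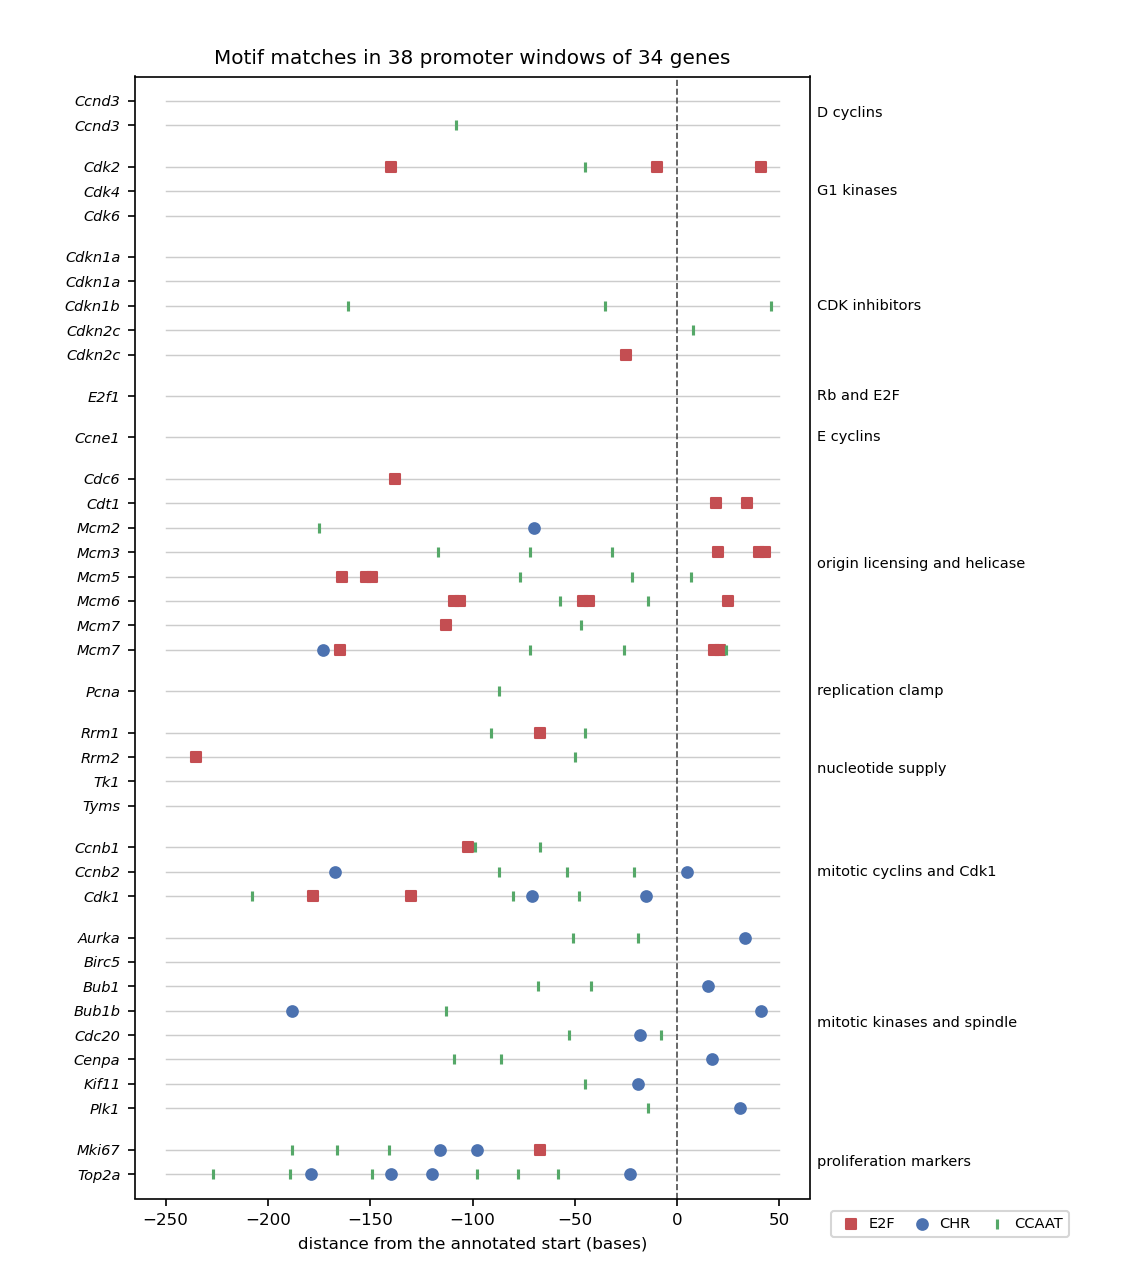
Matches to E2F (squares), CHR (circles) and CCAAT (bars) in each of 38 promoter windows, by distance in bases from the annotated start (dashed line), grouped by role. E2F matches lie in 7 of 8 windows of the licensing and helicase genes and in 2 of 3 windows of the mitotic cyclins and Cdk1. They lie in 0 of 8 windows of the mitotic kinases and spindle genes, where CHR matches lie in 7 of 8. Over all windows of the table, 9.57% hold E2F and 19.2% hold CHR matches.

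Cdk1 and the 3 mitotic cyclin genes were lowest in replicate 1 and highest in replicate 2 in CPM, under each of the 5 scalings and tables tried. Over all genes tested, 44.3% were highest in replicate 2. Ccnb2 (chromosome 9, 70407692 to 70421547) had 29, 189 and 81 counts and 1.27, 3.54 and 2.34 CPM in replicates 1, 2 and 3, a 2.79-fold span that was the widest of the 42 members (adjusted p = 2.09e-07). Its copy Ccnb2-ps received 13, 15 and 18 counts, so part of the reads may be shared. Cdk1 had 6.35, 9.80 and 7.53 CPM (adjusted p = 3.62e-06), Ccna2 4.12, 7.27 and 6.29 CPM (adjusted p = 8.85e-06) and Ccnb1 2.89, 4.65 and 4.18 CPM (adjusted p = 0.00458). The median deviation of the group was -0.44, 0.34 and 0.11 in replicates 1, 2 and 3.

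Kinases and spindle genes largely followed the mitotic cyclins. Of 9 genes, 8 were lowest in replicate 1, against 34.6% of all genes tested, and 6 were highest in replicate 2, against 44.3%. Of the 9, 6 differed beyond counting error, a share of 66.7% that is near the 67.9% of all genes tested. With library totals of all genes or in the second transcript table, 9 of 9 were highest in replicate 2. Of all genes tested, 7792 of 13237 were highest there with those totals, and 7767 of 15513 in the second transcript table. Aurka, a centrosome kinase gene, had 1.88, 4.18 and 3.06 CPM in replicates 1, 2 and 3 (adjusted p = 4.9e-06). Plk1, another mitotic kinase gene, had 1.75, 3.52 and 3.00 CPM (adjusted p = 0.000481). Kif11, encoding the motor that separates spindle poles, had 4.82, 7.61 and 6.95 CPM (adjusted p = 0.000227). Birc5, the gene of survivin, had 1.93, 3.49 and 2.74 CPM (adjusted p = 0.00185), and the checkpoint kinase gene Bub1b had 3.68, 5.60 and 5.48 CPM (adjusted p = 0.00369). Cdc20, the activator of the anaphase-promoting complex, had 25, 108 and 60 counts, and passed narrowly (adjusted p = 0.0292). Aurkb, Bub1 and Cenpa did not pass, at adjusted p = 0.714, 0.344 and 0.235. Levels were low, with 0.60, 1.83 and 1.00 TPM for Aurka, and 5 of the 9 had a mean under 1 TPM.

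Cenpa, encoding the histone H3 variant of centromeres, was the exception in level and in pattern. It had 22.8, 31.6 and 24.6 TPM in replicates 1, 2 and 3, whereas the next gene of its group, Birc5, had 1.23, 3.45 and 1.91 TPM. In CPM its values were 49.1, 46.6 and 49.0, the only gene of its group that was not lowest in replicate 1. About as much of its TPM came from a transcript annotated for nonsense-mediated decay, Cenpa-202, at 49.7 ± 4.17%, as from the coding Cenpa-205, at 41.6 ± 5.97%. The second transcript table gave 53.9 ± 3.50% and 35.3 ± 5.66%. By counts the order was the other way, with 37.7 ± 3.34% for Cenpa-202 and 48.6 ± 7.06% for Cenpa-205. Coding transcripts alone amounted to 11.1 ± 3.64 TPM.

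The proliferation markers differed from each other. Top2a, the gene of the topoisomerase that untangles replicated chromosomes, had 2.57, 6.46 and 4.68 TPM and 19.5, 32.4 and 30.4 CPM in replicates 1, 2 and 3 (adjusted p = 3.3e-20), in the mitotic order. Mki67, which encodes the Ki-67 protein, had 3.35, 5.06 and 3.35 TPM and 67.1, 69.1 and 59.4 CPM (adjusted p = 6.16e-07). It was lowest in replicate 3, not in replicate 1. Of 37 other mitotic genes, 35 were lowest in replicate 1 and 32 were highest in replicate 2, against 34.6% and 44.3% of all genes tested. Of the 37, 28 (75.7%) differed beyond counting error, where 67.9% of all genes tested did. The median deviations of the 37 genes were -0.31, 0.25 and 0.09 in replicates 1, 2 and 3. The highest of the 37 were Pttg1, the securin gene, at 14.5 ± 4.10 TPM and Incenp, a partner of Aurora B, at 11.4 ± 2.23 TPM. Pttg1 was 1 of the 2 that were not lowest in replicate 1, with 14.4, 13.0 and 10.6 CPM (adjusted p = 0.000341). Of the 7 genes of MuvB, B-Myb and FoxM1, 5 had 1 TPM or more, led by the histone-binding subunit gene Rbbp4 at 15.2 ± 2.14 and Lin37 at 7.83 ± 3.61 TPM. Of 12 other CDK activators and regulators, 10 had 1 TPM or more and 9 (75%) differed between libraries, led by the ubiquitin ligase gene Fbxw7 at 8.01 ± 2.33 TPM. Over the 8 wider lists together, 85 of 122 genes tested (69.7%) differed, against 67.9% of all genes tested, and 80 were lowest in replicate 1, against 34.6%.

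**Figure D3:**
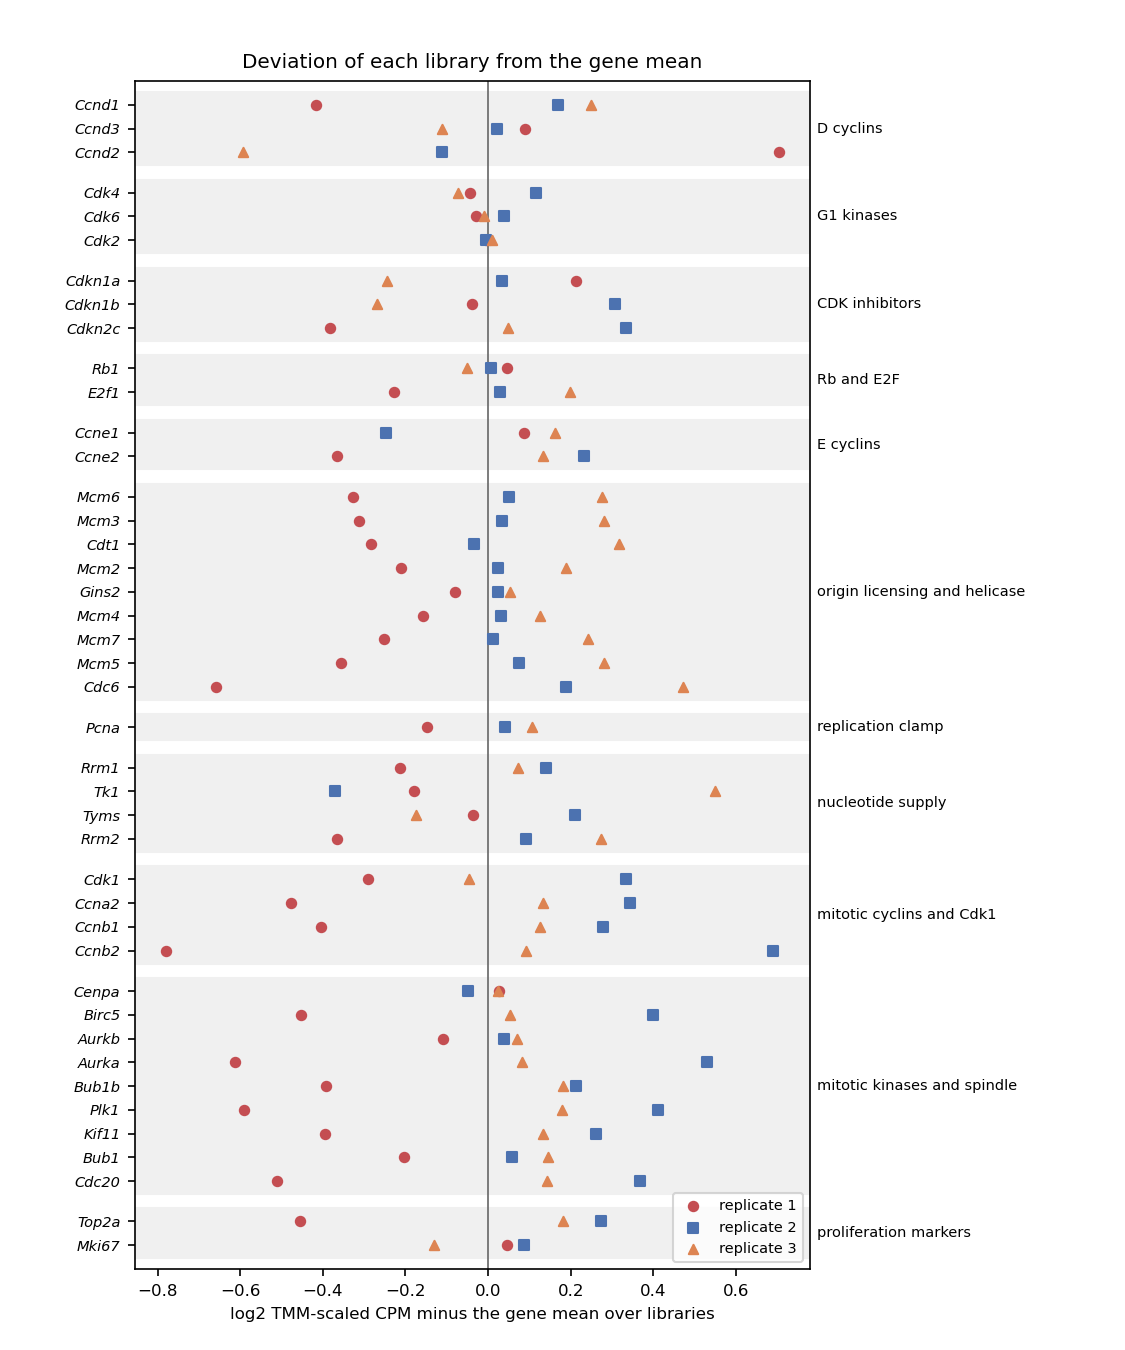
Log2 TMM-scaled CPM minus the mean of the gene over the 3 libraries (horizontal axis), for each of the 42 genes grouped by role, with circles for replicate 1, squares for replicate 2 and triangles for replicate 3. Replicate 1 is leftmost for 30 of 42 genes, replicate 3 is rightmost for all 9 licensing and helicase genes, and replicate 2 is rightmost for all 4 mitotic cyclin and Cdk1 genes.

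Of all 42 genes, 32 (76.2%) differed between libraries beyond counting error, against 67.9% of all 13237 genes tested and 75.9% of the nuclear protein-coding genes at 1 TPM or more that were tested. The share near the background did not hold for each pair of libraries. Without replicate 2, 28 of 42 members differed, against 33.4% of all genes. Without replicate 3, 29 of 42 did, against 53%, and without replicate 1, 18 of 42 did, against 56.7%. Their highest over lowest library was 1.51-fold in the median, against 1.27-fold over all genes tested. The direction was less even: 30 of 42 were lowest in replicate 1, against 34.6% of all genes tested, and 4 and 8 were lowest in replicates 2 and 3. The median deviation of the members was -0.24, 0.08 and 0.13 in replicates 1, 2 and 3, against -0.02, 0.03 and -0.01 over all genes tested. Without replicate 1, the median deviation of the members was 0.03 in replicate 2 and -0.03 in replicate 3, near the 0.02 and -0.02 over all genes tested. Hist-named histone genes, most of whose mRNAs accompany S phase, were lowest in replicate 1 for 52 of 60 genes tested under TMM. They were highest in replicate 3 for 47 of 60, against 29.5% of all genes tested. Replicate 1 is also the shallowest library and the one with the stromal transcripts, and neutrophil markers are low in it, with a median deviation of -0.84. The tested progenitor markers had median deviations of -0.29, -0.12 and 0.24 in replicates 1, 2 and 3. Malat1, a nuclear RNA, stood at 3826, 1284 and 6469 CPM across replicates 1, 2 and 3. The part of these differences in the result was not tested. In bulk RNA, fewer cycling cells and less of these RNAs per cell cannot be told apart.

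Windows and library order can be set side by side without a test. Of the 38 member windows, 34.2% held CHR, 36.8% E2F and 65.8% CCAAT letters, against 19.2%, 9.57% and 37.4% of all windows of the table. Of 17 members with a window that were highest in replicate 2, 9 held CHR, 5 held E2F and 13 held CCAAT letters. Of 14 that were highest in replicate 3, 3 held CHR, 8 held E2F and 9 held CCAAT letters. These groups depend on the scaling: of all 42 members, 19 were highest in replicate 2 and 18 in replicate 3 under TMM, but 29 and 11 with library totals of all genes, and 29 and 10 in the second transcript table.

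Transcript tables showed that gene TPM does not equal coding mRNA for some members. Of the 33 members at 1 TPM or more, 12 had 1 coding transcript with 90% or more of the TPM, among them Pcna, Ccnd1, Mcm2, Mcm4 and Mki67. In 8 of the 33, transcripts annotated as not protein-coding held 20% or more of the TPM, which is 24.2%, against 17.7% of all nuclear protein-coding genes at 1 TPM or more. Tyms stood highest at 76.0 ± 10.5%, leaving 0.320 ± 0.0520 TPM in coding forms. The share was 65.8 ± 11.0% in the second transcript table, and 48.2% of the counts in the first. Tyms-205, a decay-annotated form of 618 nt, held 35.6%, 74.8% and 66.1% of the TPM in replicates 1, 2 and 3. In replicate 1 the retained-intron form Tyms-202 held 33.9%. For Cdk1, the 475 nt retained-intron form Cdk1-204 took 42.5 ± 0.533% of the TPM but 14.3 ± 1.46% of the counts, because TPM divides by length. The second transcript table gave it 40.4 ± 1.5%. Coding forms of Cdk1 had 3.43 ± 1.63 TPM. In Top2a, 2 short processed transcripts held 18.6 ± 3.08% and 12.7 ± 2.99% of the TPM but 2.97 ± 0.611% and 2.04 ± 0.454% of the counts.

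Of the 42 members, 11 overlap another annotated gene at 1 TPM or more, and counts in the shared stretch are uncertain, on opposite strands because the use of strand is not given and on the same strand in any case. The 11 are Ccna2, Ccne2, Ccnd1, Ccnd3, Cdk4, Cdkn1a, Mcm7, Cdc20, Cdt1, Gins2 and Rb1. Some isoform values depended on the table. Gins2-203, a retained-intron form, held 51.1%, 0% and 25.9% of the TPM of its gene in replicates 1, 2 and 3 in the first table, and at most 0.000251% in the second. For Mcm3, the share not coding was 36.8 ± 2.32% in the first and 15.2 ± 10.3% in the second table. E2f1 was split between 2 coding forms, E2f1-201 at 54.9 ± 2.80% and E2f1-202 at 45.1 ± 2.80%, while the second table gave 74.2 ± 3.25% to E2f1-201. Cdkn2c divided between a short form of 1106 nt, Cdkn2c-201, with 66.4 ± 7.30% of the TPM, and the longer Cdkn2c-202 with 33.6 ± 7.30%, and the second table differed by less than the SD. Ccnb1 differed between libraries, with its main form Ccnb1-201 at 61.1 ± 21.4%.

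**Figure D4:**
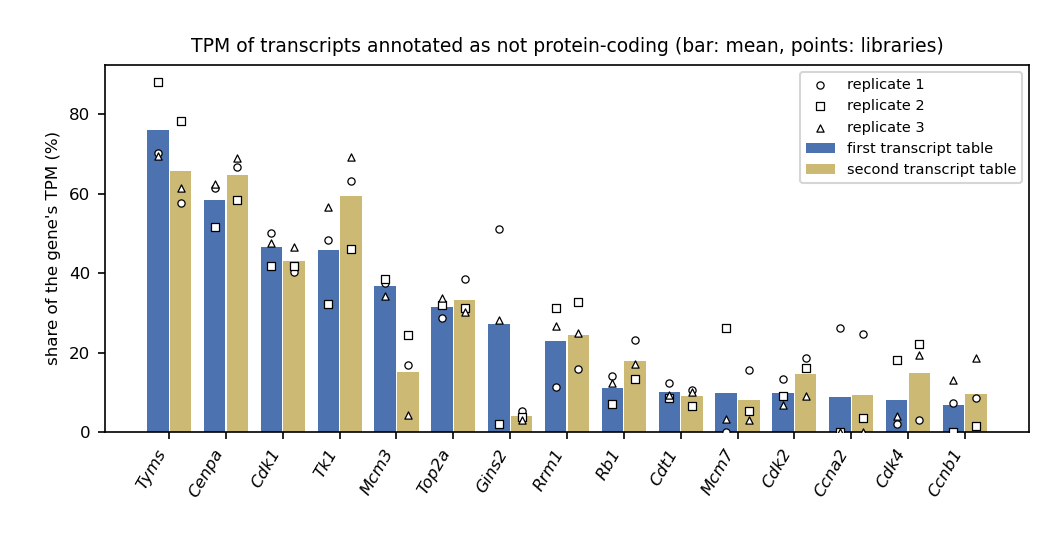
Share of each gene's TPM in transcripts annotated as not protein-coding, in percent, for members at 1 TPM or more with at least 5% in the first table; bars are means of 3 libraries in the first (blue) and second (yellow) transcript table and points are libraries. Tyms and Cenpa exceed 50% in the mean of both tables, whereas Gins2 and Mcm3 are lower in the second table.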

How the data were processed

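Cytosolic RNA of 1 group of 3 libraries was analysed, with an input of 1 µg and fragments sized 250 to 400 nt, per the labels. The authors' expected counts are estimates of the reads of each gene, not normalized, in which their estimator splits shared reads. The deposited TPM divides counts by effective length. The deposited percent column gives how the TPM of a gene divides among its transcripts. The files use mm10 and GENCODE M21, per the deposited readme files; quantifier names and strand use: not given in the sources used here. The first transcript table has the layout of RSEM and the second that of kallisto. Of 81881 gene-table rows, 26345 that name no gene, with 0.0969% to 0.462% of counts, were left out.

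Rounded expected counts were scaled by TMM factors (edgeR 4.0.16), with a prior count of 0.5 in deviations. For each gene with a mean count of 10 or more, the chi-square index of dispersion compared the libraries with Poisson error (scipy 1.17.1), with Benjamini-Hochberg adjustment over all such genes and a threshold of 0.05. This test compares libraries and not conditions, since there is 1 group, and large counts let small differences pass. The Poisson error of a member's count lay between 0.608% and 20.0%, and covers only counting, and no molecular identifiers are named in the labels. Alternatives were DESeq2 1.42.0 size factors, library totals, no filter, other pseudocounts, the second table and leaving out each library. Scripts were tested on simulated data. Promoter sequences are RefSeq's (GRCm38.p6). The 42 members and the lists were chosen with earlier results of these data known. Any member may be named. Other genes that may be named are the 2 highest by mean TPM of each wider list, copies named after a member, Malat1 and Col1a1. Genes that overlap a member, and Kit as the marker that led the progenitor sum, are named beyond this rule. The alternatives for the count of members lowest in replicate 1 were chosen after seeing the data.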

Additional observations from a re-analysis of the deposited data

How the results depend on the processing

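The count of members that differed between libraries was 32 of 42, against 67.9% of all genes tested. It was 33 under DESeq2 size factors (67.7% of all genes) and 33 under protein-coding totals (68.5%). With no filter on low counts it was 32 (46.0%), and the second transcript table gave 36 (72.7%). Across these settings the share over all genes was less stable than the count of members. Leaving out 1 library in turn gave 18 to 29: 18 without replicate 1 (56.7% of all genes), 28 without replicate 2 (33.4%) and 29 without replicate 3 (53%). The members lowest of 3 libraries in replicate 1 numbered 30 or 31 under the other scalings, no filter and the second table. The 33 and 34 found without replicates 2 and 3 are the lower of 2 libraries, another measure. The member median deviation in replicate 3 was -0.027 without replicate 1, against 0.13 with all libraries, and 0.22 without replicate 2. Over all genes tested it was -0.022 without replicate 1 and 0.0065 without replicate 2. The median log2(TPM + 1) of 2.13 became 1.79 with a pseudocount of 0.1, 1.15 in the second transcript table and 3.77 with TPM over protein-coding genes; it was 1.99 to 2.27 without 1 library. Members at 1 TPM or more numbered 23 in the second table, 42 with TPM over protein-coding genes and 31 to 36 without 1 library. The difference between Ccne1 and Ccne2 on the log2(TPM + 1) scale was -0.021 in the second table, and -0.0049 to 0.197 without 1 library, against 0.07, and the cause was not tested. The other 9 values that moved by more than 1 SD were family ratios that kept their direction. No paired analysis was possible because there is 1 group. Depth limits the genes with few counts, such as Cdc6, Ccne1 and Cdc20.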
